A study of Mus musculus with 72 samples.

Results

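The 10 genes described here belong to the circadian clock. The activators Arntl and Npas2, the repressors Per1, Per2, Per3 and Cry1, the receptors Nr1d1 and Nr1d2, and the output factors Dbp and Tef were followed in brain and liver of 3 inbred mouse strains. Their members on the array were all probe sets annotated with 1 of these symbols and no other, which gave 23 of the 45101 probe sets and 10 of the 18194 genes with a single symbol. Per3 had 6 probe sets, Per2 and Tef had 3 each, Arntl, Npas2, Nr1d2 and Dbp had 2 each, and Per1, Cry1 and Nr1d1 had 1 each. Where 1 probe set stands for a gene, it is the one with the highest mean over all arrays.

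The clock is a feedback loop that runs in most cells. ARNTL (BMAL1) pairs with CLOCK or NPAS2 and switches on genes through E-boxes, among them Per and Cry genes, whose proteins return to the nucleus and block the pair. In a further loop REV-ERBα (Nr1d1) and REV-ERBβ (Nr1d2) repress Arntl and Npas2, and the PAR bZIP factors DBP and TEF carry the rhythm to D-box genes, many of them genes of liver metabolism. In adult liver the messages of these genes rise and fall over the day, with Dbp and Nr1d1 far from Arntl and Npas2 in phase, and whole brain mixes regions that include the central clock of the suprachiasmatic nucleus.

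Whole brain and whole liver of male C57BL/6J, DBA/2J and 129S2 mice had been profiled on Affymetrix arrays at E14.5, before birth, and at postnatal days 1, 7 and 90 (P1, P7 and P90). The 3 strains, 4 stages and 2 tissues made 24 groups of 3 arrays, 72 arrays in all. The C57BL/6J and DBA/2J lines came from Jackson and the 129S2 line from Charles River in France, so that supplier and strain cannot be told apart for 129S2. P90 animals were 11 to 14 weeks old and had been bought, while the younger ones were the first generation bred from bought mice, and the sex of E14.5 and P1 animals had been read from DNA. The hour at which tissue was taken, the light cycle and whether strains were sampled together are not given in the sources used here, so strain and hour of sampling cannot be told apart. The labels do not state whether each array came from its own animal, and p-values measure only the spread between these arrays. In bulk tissue, fewer cells of a type and less RNA per cell cannot be told apart.

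Promoter sequence from RefSeq (GRCm38.p6, 250 bases before to 50 after a transcript start) was given for 9 of the 10 genes in 12 windows; Per2 had none. Both strands of each window were searched for the E-box CACGTG, bound by ARNTL pairs, the D-box TTANGTAA, bound by DBP and TEF, and the element TAGGTCA, bound by REV-ERB and ROR receptors. No window of the 12 held more than 1 of these words. The E-box was in 4 of the 12 windows (Per1, Cry1 and both of Tef) and in 7.15% of all 32817 windows given. The D-box was in the Per3 window alone among the 12, there at 2 places, and in 2.32% of all windows. TAGGTCA was in 1 Arntl window and in 2.61% of all windows. No match was found in the windows of Npas2, Nr1d1, Nr1d2 or Dbp, which says only that these letters are not in those 300 bases. The 4 windows printed here hold 1 example of each word in genes whose strain differences are described further on, in the direction of transcription and with the matched letters in capitals.
Per1, chr11:69098699-69098998, plus strand: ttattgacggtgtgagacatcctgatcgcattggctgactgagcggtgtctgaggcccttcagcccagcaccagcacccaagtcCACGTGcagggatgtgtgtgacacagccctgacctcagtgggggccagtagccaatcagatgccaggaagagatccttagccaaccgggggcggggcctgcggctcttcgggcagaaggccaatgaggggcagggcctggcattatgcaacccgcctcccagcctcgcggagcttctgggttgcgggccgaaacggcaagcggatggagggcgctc
Tef, chr15:81802423-81802722, plus strand: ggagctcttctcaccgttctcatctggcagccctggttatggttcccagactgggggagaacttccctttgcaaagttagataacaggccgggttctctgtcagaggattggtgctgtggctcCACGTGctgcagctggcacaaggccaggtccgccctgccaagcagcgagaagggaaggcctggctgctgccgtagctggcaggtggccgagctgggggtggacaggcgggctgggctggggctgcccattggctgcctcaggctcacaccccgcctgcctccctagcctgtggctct
Per3, chr4:151044616-151044915, minus strand: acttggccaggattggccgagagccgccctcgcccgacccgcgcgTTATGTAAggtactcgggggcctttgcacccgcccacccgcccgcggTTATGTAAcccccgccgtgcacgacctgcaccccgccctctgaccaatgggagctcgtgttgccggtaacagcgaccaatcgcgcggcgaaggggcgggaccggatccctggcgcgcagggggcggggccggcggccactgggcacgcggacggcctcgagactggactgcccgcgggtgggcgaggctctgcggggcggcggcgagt
Arntl, chr7:113207261-113207560, plus strand: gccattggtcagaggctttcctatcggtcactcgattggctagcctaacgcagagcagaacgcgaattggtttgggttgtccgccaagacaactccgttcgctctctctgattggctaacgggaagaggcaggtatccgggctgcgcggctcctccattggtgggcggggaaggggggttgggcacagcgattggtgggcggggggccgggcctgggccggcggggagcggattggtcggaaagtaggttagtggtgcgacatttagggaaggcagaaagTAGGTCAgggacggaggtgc
The E-box began at base -166 from the start in Per1 and at -127 in Tef. The D-boxes of Per3, both spelled TTATGTAA, began at -205 and -158, and the TAGGTCA of Arntl lay after the start, at base 31. A match is a description of sequence and was not tied to binding by any measurement here.

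The deposited values were log2 signals after RMA, the standard background correction and summary for these arrays, and the median signal of an array ran from 5.03 to 7.30. Arrays of 1 tissue and stage had been normalized together and apart from the rest, so strains were compared within a tissue and stage and levels were set across stages or tissues by size only. A strain difference was called when limma's adjusted p (Benjamini-Hochberg over all 45101 probe sets) was below 0.05 and the difference reached 1.5-fold. All 72 arrays correlated best with their own strain over 400 strain markers; 129S2 brain replicate 2 at P90 had the weakest match, with r = 0.385 against 0.566 for the next. Hepatocyte markers (5 genes, 1 probe set each) stood 9.27 to 9.38 log2 units above the array median in the 9 P90 livers. Of all 11 probe sets of these genes limma called 0 in each pair, with an unadjusted p below 0.05 for 1, 1 and 0 (DBA/2J against C57BL/6J, 129S2 against C57BL/6J, 129S2 against DBA/2J). Neuron markers (5 genes, 1 probe set each) stood 5.90 to 6.02 above the array median in the 9 P90 brains. Of their 12 probe sets limma called 0, with 1, 0 and 0 at an unadjusted p below 0.05. In the livers 3 of the 12 were called, all higher in 129S2 and all of Syt1, a synaptic vesicle protein.

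In adult liver the clock genes of 129S2 stood apart from those of both other strains. Dbp, Tef, Nr1d1, Nr1d2, Per1 and 4 probe sets of Per3 were higher in 129S2, and Arntl, Npas2 and Cry1 were lower. Against C57BL/6J, 15 of the 23 probe sets were called (12 higher, 3 lower, in 9 of the 10 genes), beside 4.56% of all probe sets (1.84% higher, 2.71% lower); against DBA/2J it was also 15 (12 higher, 3 lower, 9 genes), beside 3.67% (1.82% higher, 1.85% lower). Between DBA/2J and C57BL/6J limma called 0 of 23, beside 3.03% of all probe sets, and 5 had an unadjusted p below 0.05. The median absolute log2 difference over the 23 was 1.19 for 129S2 against C57BL/6J and 1.14 against DBA/2J, where all probe sets had 0.10 and 0.09. For DBA/2J against C57BL/6J it was 0.19, with 0.10 over all probe sets. Both comparisons with C57BL/6J use the same C57BL/6J arrays.

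**Figure D1:**
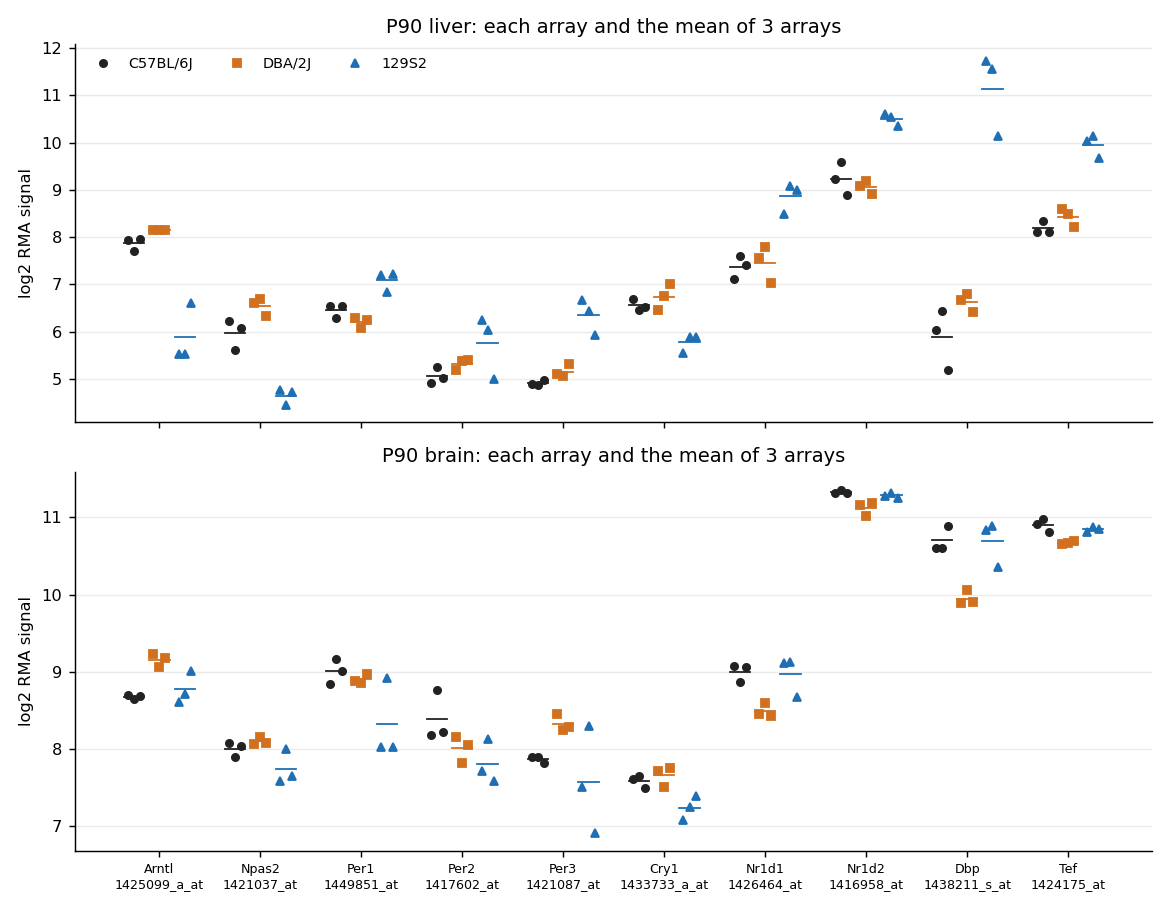
Log2 RMA signal of each clock gene (1 probe set per gene) on every P90 array, brain and liver, by strain; each point is 1 array and each line a group mean. In liver the 129S2 points for Dbp, at 10.14 to 11.72, lie above all 6 others, at 5.18 to 6.79, whereas those for Arntl, at 5.53 to 6.60, lie below them, at 7.70 to 8.15.

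Among the activators, liver Arntl, the obligate partner of the E-box complex, read 5.54, 5.53 and 6.60 in 129S2, 7.93, 7.70 and 7.97 in C57BL/6J and 8.14, 8.15 and 8.15 in DBA/2J. The 129S2 arrays lay below all 6 others, and replicate 3 of 129S2 was the nearest to them. Arntl was 3.94-fold lower in 129S2 than in C57BL/6J (log2 -1.98, SE 0.18, limma adjusted p = 1.48e-09) and 4.79-fold lower than in DBA/2J (log2 -2.26, adjusted p = 1.1e-10). The second Arntl probe set, 1457740_at, was not called for 129S2 in either pair, with log2 values of -0.21 and 0.29. Npas2, which can take the place of CLOCK, read 4.77, 4.45 and 4.73 in 129S2, 6.23, 5.62 and 6.07 in C57BL/6J and 6.60, 6.69 and 6.33 in DBA/2J on probe set 1421037_at, again with no overlap between 129S2 and the rest. It was 2.50-fold lower in 129S2 than in C57BL/6J (log2 -1.32, SE 0.15, adjusted p = 1.39e-07) and 3.71-fold lower than in DBA/2J (log2 -1.89, adjusted p = 1.32e-10). Probe set 1421036_at was not called, with log2 -0.35 (adjusted p = 0.0857) and -0.54 (adjusted p = 0.00551, under 1.5-fold). All liver values of Npas2 lay below 6.66, the median of all values in the data, on 1421037_at at P90 except for 1 DBA/2J array at 6.69.

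The repressors did not move as a block in liver. Cry1, which holds the ARNTL pair inactive on DNA, read 5.54, 5.89 and 5.88 in 129S2, 6.69, 6.46 and 6.53 in C57BL/6J and 6.46, 6.75 and 7.00 in DBA/2J. All 129S2 arrays were below the others, and Cry1 was 1.73-fold lower than in C57BL/6J (log2 -0.79, SE 0.16, adjusted p = 0.000987) and 1.95-fold lower than in DBA/2J (log2 -0.96, adjusted p = 9.85e-05). Per1, the quickly induced Period gene, read 7.21, 6.84 and 7.23 in 129S2, 6.54, 6.29 and 6.54 in C57BL/6J and 6.28, 6.09 and 6.24 in DBA/2J, so that 129S2 was highest with no overlap. It was 1.85-fold higher in 129S2 than in DBA/2J (log2 0.89, adjusted p = 0.00298) and 1.56-fold higher than in C57BL/6J (log2 0.64, SE 0.20, adjusted p = 0.0356). That last call was lost when any 1 array of the pair other than 129S2 replicate 2 was left out, with log2 values from 0.56 to 0.68 and adjusted p from 0.0643 to 0.148. Per2, the partner of Per1 in the repressor complex, was not called on any of its 3 probe sets in liver. Its probe set 1417602_at read 6.25, 6.04 and 4.99 in 129S2, 4.91, 5.25 and 5.02 in C57BL/6J and 5.18, 5.38 and 5.40 in DBA/2J: replicates 1 and 2 of 129S2 were above the 6 other arrays and replicate 3 lay among them (log2 0.70 against C57BL/6J, adjusted p = 0.152). Probe set 1457350_at of Per2 differed by log2 0.56 with adjusted p = 0.00547, at 1.48-fold just under the fold asked for, and 1417603_at by log2 0.16 (adjusted p = 0.576).

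Per3, a Period gene less needed for the core rhythm, was higher in 129S2 liver on 4 of its 6 probe sets in both pairs. On 1421087_at the arrays read 6.66, 6.43 and 5.94 in 129S2, 4.89, 4.88 and 4.97 in C57BL/6J and 5.10, 5.05 and 5.31 in DBA/2J, with every 129S2 array above the others. The difference was 2.70-fold against C57BL/6J (log2 1.43, SE 0.15, adjusted p = 3.14e-08) and 2.28-fold against DBA/2J (log2 1.19, adjusted p = 1.14e-06). Probe set 1458176_at was higher by log2 1.84 against C57BL/6J (SE 0.24, adjusted p = 2.1e-06). Its arrays read 5.60, 6.00 and 5.98 in 129S2, 3.95, 4.16 and 3.94 in C57BL/6J and 4.36, 4.38 and 4.08 in DBA/2J. Probe sets 1442243_at and 1441445_at were also higher (log2 1.26 and 0.84 against C57BL/6J), whereas 1421086_at and 1460662_at were not called (log2 0.11 and 0.00). Those 2 probe sets had group means of at most 4.63 in P90 liver. The C57BL/6J arrays of 1421087_at and 1458176_at also lay below 5.03, the lowest array median, so the size of a fold against them is uncertain.

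The receptors of the stabilising loop were higher in 129S2 liver. Nr1d1, a repressor of Arntl, read 8.50, 9.08 and 9.01 in 129S2, 7.12, 7.60 and 7.40 in C57BL/6J and 7.56, 7.79 and 7.02 in DBA/2J. The 129S2 arrays were above all others, and Nr1d1 was 2.81-fold higher than in C57BL/6J (log2 1.49, SE 0.20, adjusted p = 2.26e-06) and 2.65-fold higher than in DBA/2J (log2 1.40, adjusted p = 7.18e-06). Its relative Nr1d2 read 10.61, 10.55 and 10.36 in 129S2, 9.23, 9.59 and 8.90 in C57BL/6J and 9.07, 9.19 and 8.92 in DBA/2J on 1416958_at. The 3 groups separated in the same way, by 2.41-fold against C57BL/6J (log2 1.27, SE 0.18, adjusted p = 8.48e-06) and 2.72-fold against DBA/2J (log2 1.44, adjusted p = 1.29e-06). The second Nr1d2 probe set gave log2 1.19 and 1.33 in the same order.

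The output factors held the largest liver difference. Dbp, whose message is among the most strongly rhythmic in liver, read 11.72, 11.56 and 10.14 in 129S2, 6.05, 6.44 and 5.18 in C57BL/6J and 6.66, 6.79 and 6.41 in DBA/2J on 1438211_s_at. Replicates 1 and 2 of 129S2 lay close together, replicate 3 was lower, and all 3 were above the highest array of the other strains. Dbp was 38.1-fold higher in 129S2 than in C57BL/6J (log2 5.25, SE 0.33, adjusted p = 1.42e-12) and 22.9-fold higher than in DBA/2J (log2 4.52, adjusted p = 3.92e-11). On the second probe set, 1418174_at, the arrays read 10.43, 10.23 and 8.83 in 129S2, 5.54, 5.87 and 5.23 in C57BL/6J and 6.03, 6.14 and 5.85 in DBA/2J, and the same differences were 19.5-fold (log2 4.28, SE 0.26, adjusted p = 7.46e-13) and 14.1-fold (log2 3.82). Both probe sets placed replicate 3 lowest of the 129S2 livers. Tef, a close relative of Dbp with a flatter rhythm, read 10.03, 10.15 and 9.67 in 129S2, 8.11, 8.33 and 8.12 in C57BL/6J and 8.59, 8.48 and 8.21 in DBA/2J. It was 3.39-fold higher in 129S2 than in C57BL/6J (log2 1.76, SE 0.11, adjusted p = 1.42e-12) and 2.87-fold higher than in DBA/2J (log2 1.52, adjusted p = 3.58e-11), with no overlap. Probe set 1450184_s_at of Tef followed (log2 1.57 and 1.23), and 1438033_at was not called (log2 0.23 and 0.18).

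DBA/2J and C57BL/6J livers were close by comparison. The largest of their differences was that of Dbp (log2 0.73 for DBA/2J minus C57BL/6J on 1438211_s_at, adjusted p = 0.26). The smallest adjusted p were those of Arntl probe set 1457740_at (log2 -0.50, adjusted p = 0.000964) and Npas2 1421037_at (log2 0.57, adjusted p = 0.0157), at 1.41-fold and 1.48-fold below the fold minimum. The arrays of this pair did not overlap for 7 of the 23 probe sets, beside 24.4% of all probe sets. For 129S2 they did not overlap for 18 against C57BL/6J and 19 against DBA/2J, beside 27.4% and 23.2%. Kupffer cell markers (4 probe sets) also separated the livers: 3 were lower in 129S2 and 2 in DBA/2J than in C57BL/6J, and 0 were called between 129S2 and DBA/2J. With 1 probe set for each of their 3 genes, the mean level above the array median was 3.26 to 3.91 in C57BL/6J, 2.71 to 2.79 in 129S2 and 2.63 to 2.97 in DBA/2J. The part of Kupffer cells in the clock gene differences was not tested.

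Adult brain showed fewer and smaller differences, and here DBA/2J was the strain with lower Dbp. Of the 23 probe sets, 5 were called for DBA/2J against C57BL/6J (1 higher, 4 lower, in 3 genes; 2.21% of all probe sets), 2 for 129S2 against C57BL/6J (both lower; 1.79%, or 1.15% counting lower ones) and 6 for 129S2 against DBA/2J (3 higher, 3 lower, in 4 genes; 1.63%). The median absolute log2 differences were 0.27, 0.15 and 0.38 in that order, and 0.08, 0.09 and 0.08 over all probe sets. The arrays did not overlap for 18, 4 and 14 of the 23, beside 27%, 25.3% and 21.3% of all probe sets. Leaving out 1 array moved the brain counts: the 13 calls became 7 without replicate 1 of 129S2 and 17 without replicate 2.

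Dbp in brain read 10.84, 10.89 and 10.35 in 129S2, 10.61, 10.61 and 10.89 in C57BL/6J and 9.88, 10.06 and 9.90 in DBA/2J on 1438211_s_at. The DBA/2J arrays were below all others, while those of 129S2 and C57BL/6J overlapped. Dbp was 1.69-fold lower in DBA/2J than in C57BL/6J (log2 -0.75, SE 0.18, adjusted p = 0.0109), and 1418174_at gave log2 -0.75 (1.68-fold, adjusted p = 0.00202). The call on 1438211_s_at was lost without C57BL/6J replicate 3 (log2 -0.66, adjusted p = 0.0876) or without DBA/2J replicate 1 (log2 -0.72, adjusted p = 0.0548), and that on 1418174_at was kept without any 1 P90 brain array. Against DBA/2J, 129S2 was higher by log2 0.75 and 0.68 on these probe sets (adjusted p = 0.0155 and 0.00725). The first was lost without 129S2 replicate 1 or 2 or DBA/2J replicate 1 or 3 (log2 0.65 to 0.72, adjusted p 0.0694 to 0.106), and the second without 129S2 replicate 1 or DBA/2J replicate 3 (log2 0.61 in both, adjusted p = 0.0658 and 0.0595). Tef was not called in brain: it read 10.80, 10.88 and 10.84 in 129S2, 10.91, 10.97 and 10.81 in C57BL/6J and 10.66, 10.67 and 10.69 in DBA/2J, with DBA/2J lowest (log2 -0.22 against C57BL/6J, adjusted p = 0.0455, under 1.5-fold).

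The receptors were not called in brain. Nr1d1 read 9.12, 9.12 and 8.68 in 129S2, 9.07, 8.86 and 9.06 in C57BL/6J and 8.45, 8.60 and 8.43 in DBA/2J, and DBA/2J was lowest with no overlap, by 1.42-fold against C57BL/6J (log2 -0.51, adjusted p = 0.0344). Nr1d2 read 11.28, 11.32 and 11.25 in 129S2, 11.31, 11.36 and 11.32 in C57BL/6J and 11.16, 11.02 and 11.18 in DBA/2J, and its DBA/2J arrays were again the 3 lowest. Markers of pituitary and pineal (6 probe sets), small glands that can stay with a whole brain, had a median difference of log2 0.38 for DBA/2J minus C57BL/6J, with 0 called by limma and 4 at an unadjusted p below 0.05. With 1 probe set per gene all 3 lay below the array median: Gh at -0.49 in C57BL/6J and -0.17 in DBA/2J, Prl at -1.98 and -1.87, and Aanat, with the other sign, at -0.30 and -0.32. Their part in the DBA/2J values was not tested.

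The probe sets of the activator Arntl gave opposite signs in brain. On 1425099_a_at the arrays read 8.62, 8.71 and 9.01 in 129S2, 8.70, 8.65 and 8.68 in C57BL/6J and 9.23, 9.06 and 9.18 in DBA/2J, with DBA/2J highest by log2 0.48 against C57BL/6J (1.39-fold, adjusted p = 0.00157, under the fold minimum). On 1457740_at they read 6.67, 6.47 and 6.61 in 129S2, 6.63, 6.61 and 6.36 in C57BL/6J and 6.11, 6.14 and 5.56 in DBA/2J, with DBA/2J lowest by log2 -0.60 (1.51-fold, adjusted p = 0.00416). That call was lost without C57BL/6J replicate 1 (log2 -0.55) or replicate 2 (log2 -0.56), then under 1.5-fold, and without DBA/2J replicate 3 (log2 -0.41, adjusted p = 0.0775). DBA/2J replicate 3 also decided the difference of 129S2 from DBA/2J on this probe set, log2 0.64 (adjusted p = 0.00289) with it and 0.45 (adjusted p = 0.0512) without it. Npas2 1421036_at read 6.31, 7.41 and 6.81 in 129S2, 7.38, 7.46 and 7.47 in C57BL/6J and 7.58, 7.59 and 7.52 in DBA/2J. Replicate 2 of 129S2 sat near the other strains and replicates 1 and 3 below them. This probe set was called lower in 129S2 in both pairs (log2 -0.59 against C57BL/6J, adjusted p = 0.00681, and -0.72 against DBA/2J, adjusted p = 0.00109). Without 129S2 replicate 1 both calls were lost (log2 -0.32 and -0.45). The first also fell under 1.5-fold without 129S2 replicate 3, C57BL/6J replicate 2 or C57BL/6J replicate 3 (log2 -0.57, -0.58 and -0.57). The other and brighter Npas2 probe set, 1421037_at, was not called in brain in either pair (log2 -0.26 against C57BL/6J and -0.36 against DBA/2J).

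Among the repressors in brain, Per1 read 8.03, 8.92 and 8.02 in 129S2, 8.84, 9.16 and 9.01 in C57BL/6J and 8.89, 8.86 and 8.97 in DBA/2J, and replicate 2 of 129S2 overlapped the other strains. Per1 was 1.60-fold lower in 129S2 than in C57BL/6J (log2 -0.68, SE 0.15, adjusted p = 0.00662). The call was lost without 129S2 replicate 1 (log2 -0.53, adjusted p = 0.0936), 129S2 replicate 3 (log2 -0.53, adjusted p = 0.0879) or C57BL/6J replicate 2 (log2 -0.60, adjusted p = 0.0582). Per2 (log2 -0.57, adjusted p = 0.139, on 1417602_at; -0.48, adjusted p = 0.0410 but under 1.5-fold, on 1417603_at) and Cry1 (log2 -0.35, adjusted p = 0.259) were not called in this pair. Cry1 read 7.09, 7.26 and 7.39 in 129S2, 7.62, 7.66 and 7.50 in C57BL/6J and 7.72, 7.51 and 7.76 in DBA/2J, with all 129S2 arrays lowest.

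The 6 Per3 probe sets disagreed in brain. On 1458176_at the arrays read 8.14, 8.02 and 7.93 in 129S2, 8.39, 8.58 and 8.46 in C57BL/6J and 7.55, 7.62 and 7.70 in DBA/2J, so that DBA/2J was lowest, 1.81-fold below C57BL/6J (log2 -0.86, SE 0.20, adjusted p = 0.00748). On 1460662_at they read 5.44, 6.74 and 5.48 in 129S2, 6.31, 6.35 and 6.03 in C57BL/6J and 7.12, 6.98 and 7.05 in DBA/2J, and DBA/2J was highest, 1.76-fold above C57BL/6J (log2 0.82, SE 0.20, adjusted p = 0.0097) and 2.23-fold above 129S2 (log2 -1.16 for 129S2 minus DBA/2J, adjusted p = 0.000321). On 1421087_at 129S2 was called below DBA/2J (log2 -0.76, adjusted p = 0.014) although replicate 2 of 129S2, at 8.30, overlapped DBA/2J. Leaving out C57BL/6J replicate 3 or DBA/2J replicate 1 ended the higher DBA/2J call on 1460662_at (log2 0.72, adjusted p = 0.0806; log2 0.78, adjusted p = 0.0506). Leaving out 129S2 replicate 1 or 3 or DBA/2J replicate 1 ended that on 1421087_at (log2 -0.73, -0.43 and -0.70; adjusted p = 0.0733, 0.211 and 0.0841). The lower value of DBA/2J on 1458176_at and of 129S2 on 1460662_at against DBA/2J remained called without any 1 P90 brain array. In liver these probe sets had no such opposite calls, and what sets the 6 apart was not tested.

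**Figure D2:**
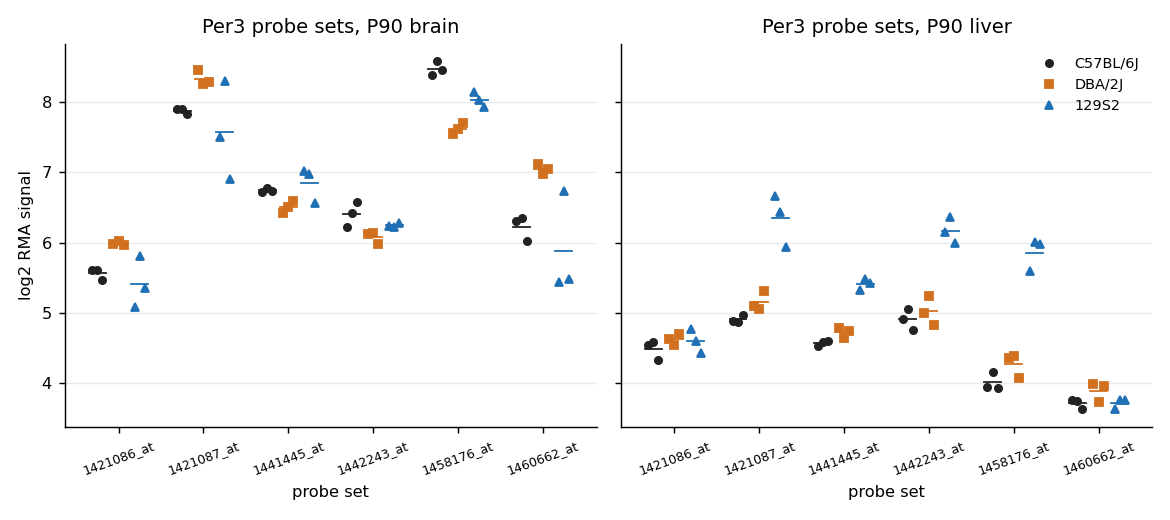
Log2 RMA signal of the 6 Per3 probe sets on every P90 array, brain in the left panel and liver in the right, by strain; each point is 1 array and each line a mean of 3 arrays. In brain the DBA/2J points are lowest on 1458176_at (7.55 to 7.70) and highest on 1460662_at (6.98 to 7.12), whereas in liver the 129S2 points are highest on 4 probe sets.

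Brain and liver did not shift alike at P90 when 129S2 was set against C57BL/6J. Of the probe sets called in at least 1 tissue, 4 of 16 (25%) had the same sign in both for this pair, beside 68.9% of all probe sets so called. For DBA/2J against C57BL/6J it was 2 of 5 (40.0%), beside 72.5%. Those 5, in 3 genes, were called in brain and 0 were called in liver, so brain calls are set beside uncalled liver values there. For 129S2 against DBA/2J, 16 of 18 (88.9%) had the same sign, beside 68.9%. In the pairs with 129S2, 1 of the 16 and 3 of the 18 were called in both tissues. Many of the others set a liver call beside a small uncalled brain value, against C57BL/6J for example -0.03 for Nr1d1 and -0.05 for Tef 1424175_at. The sign of such a value says little, so the 25% does not count opposite shifts. In liver Dbp was 5.25 log2 units above C57BL/6J in 129S2, and in brain the same probe set differed by -0.01. For 129S2 minus DBA/2J Dbp was higher in both tissues, by 4.52 in liver and 0.75 in brain, and both of its probe sets were called in each. Per1 was the sole probe set called in both tissues for 129S2 against C57BL/6J, with opposite signs (0.64 in liver, -0.68 in brain). Per3 1421087_at did the same against DBA/2J (1.19 in liver, -0.76 in brain). The 3 pairs share their arrays, so these counts are not independent of each other.

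The difference between tissues was tested in a fit of all 72 arrays, as the brain difference minus the liver difference. For 129S2 against C57BL/6J, limma called 17 of 23 probe sets (2 higher, 15 lower, in 9 genes; 4.18% of all probe sets). For 129S2 against DBA/2J it was 15 (2 higher, 13 lower; 3.27%) and for DBA/2J against C57BL/6J 4 (all lower; 2.97%, or 1.51% counting lower ones). The largest was Dbp against C57BL/6J (log2 -5.26, SE 0.39, adjusted p = 2.31e-15). Tef followed at -1.82 (adjusted p = 4.69e-16), Per3 at -1.74, Nr1d1 at -1.52, Per1 at -1.32 and Nr1d2 at -1.31, and Arntl (2.08, adjusted p = 2.72e-11) and Npas2 (1.06) had the other sign. Cry1, lower in 129S2 in liver by -0.79 and in brain by -0.35, was not called. For DBA/2J against C57BL/6J the 4 were Dbp on both probe sets (-1.21 and -1.49), Per3 1458176_at (-1.11) and Tef 1450184_s_at (-0.60). All but Dbp 1418174_at of these 4 were lost without at least 1 C57BL/6J or DBA/2J brain array, and all 4 without C57BL/6J liver replicate 3 (log2 -1.05 and -1.13 for Dbp, -1.07 for Per3 and -0.53 for Tef, adjusted p 0.0604 to 0.121). Of the calls with 129S2, that of Per2 1417602_at against C57BL/6J (-1.27) was lost in 6 of 18 refits without 1 P90 array: the value ran from -1.03 to -1.22 with adjusted p up to 0.122 without 1 of 129S2 brain replicates 1 and 3, C57BL/6J brain replicate 2, 129S2 liver replicates 1 and 2 and C57BL/6J liver replicate 1. Nr1d1 against DBA/2J (-0.93) was lost without 129S2 brain replicate 3, 129S2 liver replicate 2 or 3 or DBA/2J liver replicate 3, at -0.71 to -0.85 and adjusted p 0.0572 to 0.119. Per2 1417603_at against C57BL/6J (-0.64) and Per3 1458176_at against DBA/2J (-1.18) were each lost in 5 of the 18 refits, with adjusted p up to 0.193 and 0.0659, Per2 1457350_at against DBA/2J in 3 and Per3 1441445_at against C57BL/6J in 1.

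**Figure D3:**
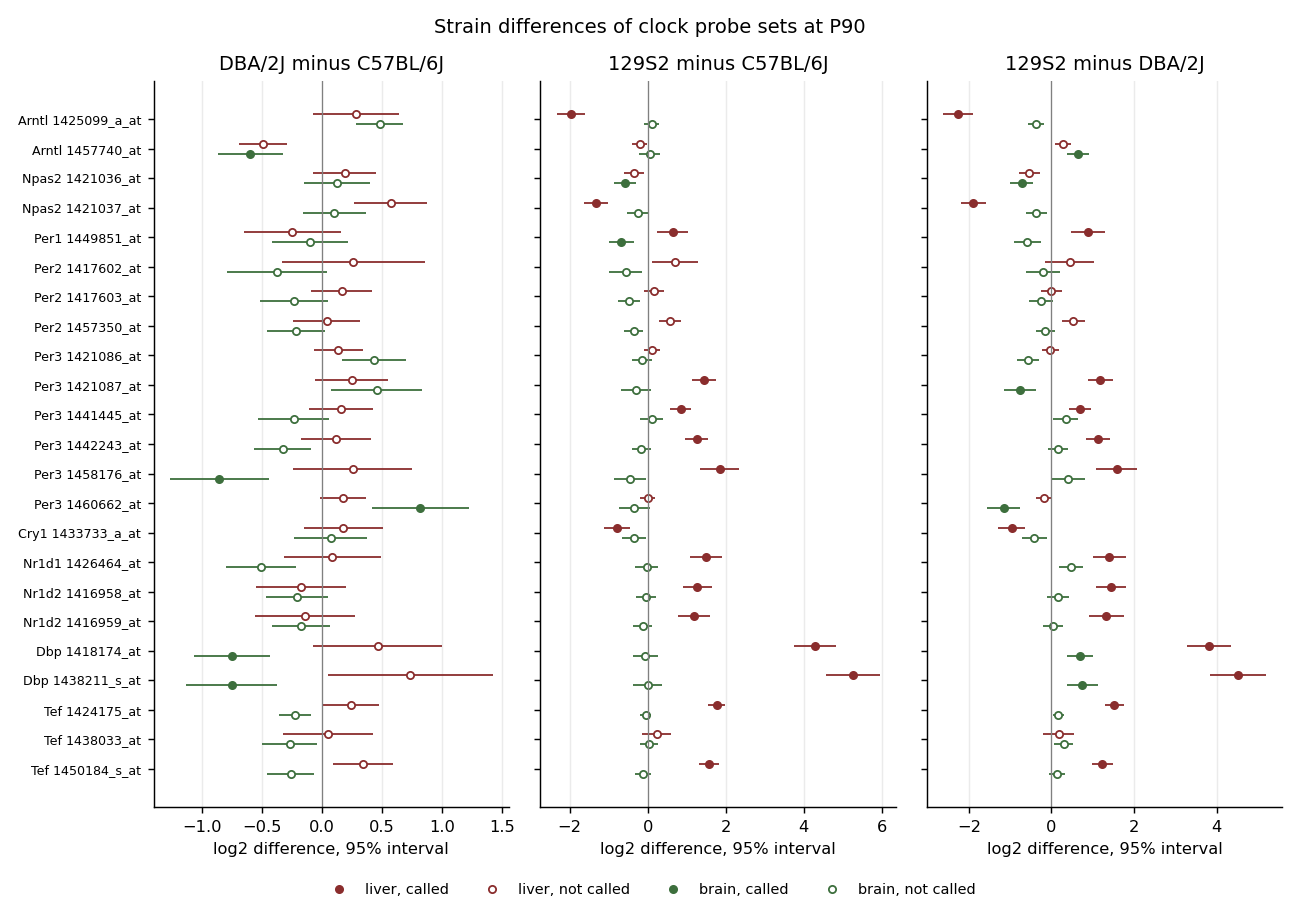
Strain differences at P90 in log2 units (horizontal) for each of the 23 clock probe sets (vertical) in brain and liver, with 1 panel per pair of strains; lines are 95% confidence intervals from limma and filled points were called. In the panel of 129S2 minus C57BL/6J the Dbp points reach 4.28 and 5.25 in liver and stay at -0.07 and -0.01 in brain, and Arntl stands at -1.98 in liver and 0.10 in brain.

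Over the 3 pairs together, fewer clock probe sets were called between strains before adulthood than at P90. Liver of DBA/2J against C57BL/6J went the other way, with 1 call at E14.5, 2 at P1 and 0 at P90. In brain, 1 of the 23 probe sets was called over the 9 comparisons of E14.5, P1 and P7. It was Per3 1441445_at at P7, lower in 129S2 than in C57BL/6J by log2 -0.60 (SE 0.14, adjusted p = 0.0130), with arrays at 6.58, 7.30 and 6.63 against 7.36, 7.28 and 7.68. Replicate 2 of 129S2 overlapped C57BL/6J, and the call was lost without 129S2 replicate 1 (log2 -0.48), 129S2 replicate 3 (-0.50) or C57BL/6J replicate 3 (-0.49), with adjusted p 0.129 to 0.136. All probe sets were called at 3.77, 2.82 and 1.99% at E14.5 (DBA/2J against C57BL/6J, 129S2 against C57BL/6J, 129S2 against DBA/2J), 1.56, 1.58 and 1.63% at P1 and 1.62, 1.59 and 1.43% at P7. An unadjusted p below 0.05 was found in the same order for 5, 2 and 3 of the 23 at E14.5, 0, 1 and 1 at P1 and 2, 5 and 2 at P7.

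In liver before adulthood there were 6 calls, in Arntl, Dbp and Per3, and the largest of them, log2 1.19, were of the size of the largest brain difference at P90 (-1.16). At E14.5 Arntl 1425099_a_at read 7.79, 8.07 and 7.94 in 129S2, 7.90, 7.99 and 7.88 in C57BL/6J and 6.88, 7.13 and 7.02 in DBA/2J. DBA/2J was lowest, by log2 -0.92 against C57BL/6J (adjusted p = 0.000667) and 0.92 for 129S2 minus DBA/2J (adjusted p = 0.000884). At P1 Arntl was again lower in DBA/2J, 7.35, 7.73 and 7.65 against 8.34, 8.04 and 8.33 in C57BL/6J (log2 -0.66, adjusted p = 0.00795), and without DBA/2J replicate 1 it was not called (-0.55, adjusted p = 0.0671). Dbp 1438211_s_at at P1 was higher in DBA/2J, 9.10, 9.17 and 8.86 against 8.05, 8.08 and 7.44 (log2 1.19, adjusted p = 0.0126), and was lost without C57BL/6J replicate 3 (log2 0.98, adjusted p = 0.0729). At P7 Per3 1421087_at was higher in 129S2, with 9.17, 8.75 and 8.88 in 129S2, 7.95, 8.49 and 7.96 in C57BL/6J and 7.89, 7.52 and 7.83 in DBA/2J. The difference was log2 0.80 against C57BL/6J (adjusted p = 0.000559) and 1.19 against DBA/2J (adjusted p = 2e-06), and none of the 6 calls had overlapping arrays. In the order of pairs given for brain, the 23 had 1, 0 and 1 calls at E14.5, 2, 0 and 0 at P1 and 0, 1 and 1 at P7. A single call is 4.35% of the 23, and 2 calls are 8.7%. Of all probe sets 3.36, 2.62 and 1.96% were called at E14.5, 6.96, 2.6 and 5.94% at P1 and 3, 3.09 and 3.76% at P7. Counts this small lie near the share of all probe sets. For the 23 an unadjusted p below 0.05 was found for 6, 2 and 2, then 9, 4 and 7, then 3, 6 and 5. The median absolute difference of DBA/2J from C57BL/6J at P1 was 0.24, with 0.13 over all probe sets.

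In liver most clock genes of 129S2 differed more from the other strains at P90 than before. The difference at P90 minus the mean of the differences at E14.5, P1 and P7 was called for 14 of the 23 probe sets against C57BL/6J (11 higher, 3 lower; 3.76% of all probe sets) and 14 against DBA/2J (11 higher, 3 lower; 3.54%). Against C57BL/6J it was 4.71 for Dbp (SE 0.39, adjusted p = 7.92e-10), 1.65 for Tef, 1.53 for Nr1d1, 0.97 for both Nr1d2 1416958_at and Per3 1421087_at, -1.97 for Arntl, -1.38 for Npas2 and -1.03 for Cry1. Against DBA/2J it was 4.88 for Dbp (adjusted p = 3.49e-10) and -2.83 for Arntl (adjusted p = 3.87e-11), and Per1 was called too (0.86, adjusted p = 0.0174). Per1 was lost without 129S2 P90 liver replicate 1 or 3 or DBA/2J replicate 2 (log2 0.80 to 0.81, adjusted p 0.0624 to 0.0674). For DBA/2J against C57BL/6J 3 were called, all higher (2.66% of all probe sets, 1.3% higher): Arntl (0.86, adjusted p = 0.00942), Npas2 (0.59, adjusted p = 0.0423) and Per3 1441445_at (0.59, adjusted p = 0.0193). The Npas2 and Per3 calls were lost without any of several arrays at every stage, with Npas2 at 0.41 (adjusted p = 0.227) without C57BL/6J P90 liver replicate 2 and Per3 at 0.53 without C57BL/6J P1 liver replicate 2. At P90 itself the DBA/2J differences from C57BL/6J were 0.28 for Arntl, 0.57 for Npas2 and 0.16 for this Per3 probe set, none of them called. Arntl had been called lower in DBA/2J at E14.5 and P1, so its value of 0.86 is not a larger difference at P90.

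In brain the same contrast called 3 probe sets for DBA/2J against C57BL/6J (all lower; 1.16% of all probe sets, 0.616% lower), 1 for 129S2 against C57BL/6J (lower; 1.02%, 0.572% lower) and 4 for 129S2 against DBA/2J (1 higher, 3 lower; 0.869%). For Dbp in DBA/2J against C57BL/6J this contrast was -1.03 on 1438211_s_at (adjusted p = 0.00467), its second probe set was called too, and both were kept without any 1 brain array. The P90 difference alone was -0.75 on 1438211_s_at. DBA/2J had the higher mean at each earlier stage, as at E14.5 (7.78, 7.68 and 7.56 against 7.61, 7.10 and 6.94). Nr1d1 was at -0.65 (adjusted p = 0.0335). Per3 1421087_at was at -0.87 for 129S2 against C57BL/6J (adjusted p = 0.0270) and -1.20 against DBA/2J (adjusted p = 0.00137). Its P90 differences alone were -0.30, without a call, and -0.76. At each earlier stage 129S2 had the higher mean of this probe set in both pairs, without a call. At P7 it read 8.83, 8.90 and 8.76 in 129S2 and 8.16, 8.14 and 8.36 in C57BL/6J. The other calls for 129S2 against DBA/2J were Npas2 1421036_at (-0.69), Per3 1460662_at (-0.89) and Dbp 1418174_at (0.79). Nr1d1 was lost without any 1 C57BL/6J or DBA/2J P90 brain array other than C57BL/6J replicate 2 and DBA/2J replicate 2 (-0.61 to -0.63, adjusted p 0.107 to 0.118), and without DBA/2J P7 replicate 3 (-0.62, adjusted p = 0.0507). Per3 1421087_at against DBA/2J was kept without any 1 brain array. The other 4 calls with 129S2 were each lost without at least 129S2 P90 replicate 1, where Per3 1421087_at against C57BL/6J was at -0.84, Npas2 at -0.42, Per3 1460662_at at -0.66 and Dbp at 0.72 (adjusted p 0.0774 to 0.286). The 8 brain calls became 4 without 129S2 P90 replicate 1, 5 without DBA/2J P90 replicate 1 or 3, and 14 without 129S2 P90 replicate 2. In that last set the 129S2 brain array with the weakest match to its strain is missing.

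**Figure D4:**
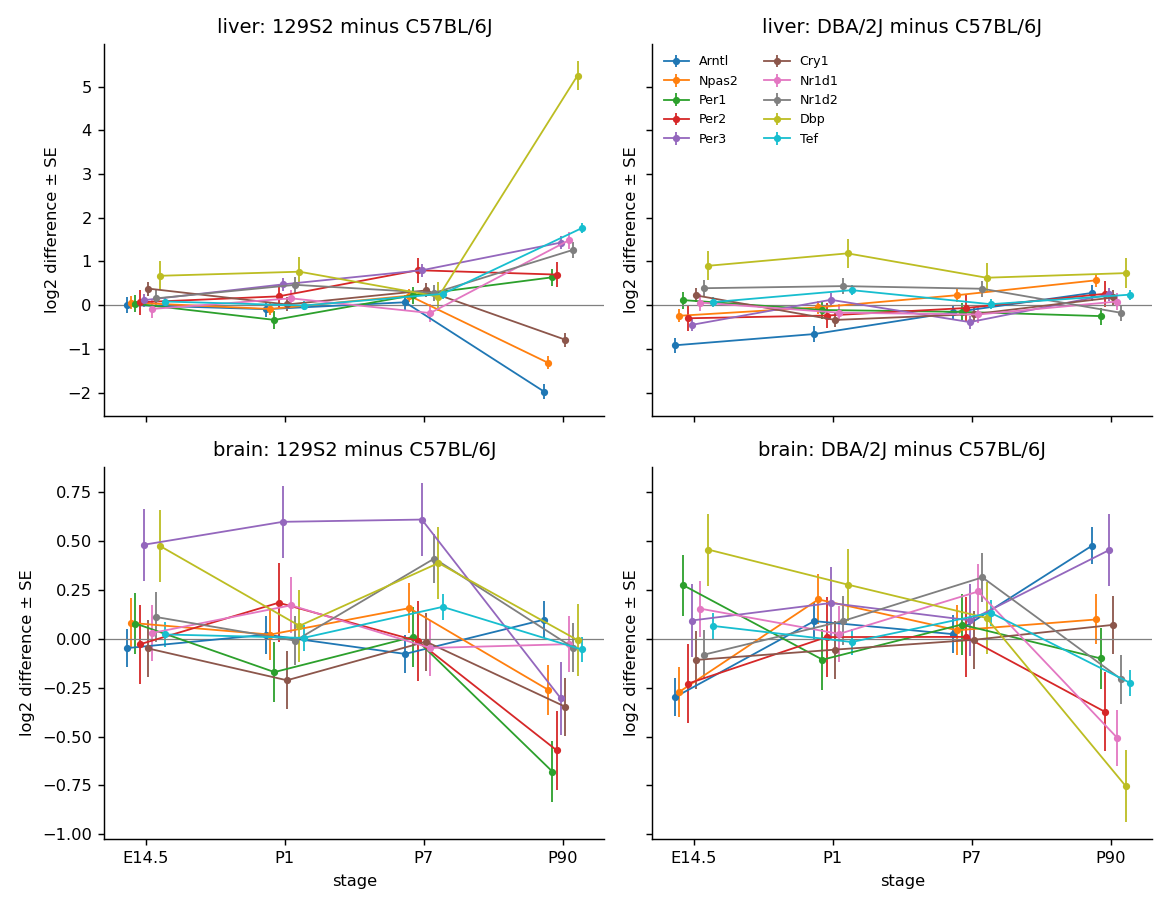
Strain differences in log2 units (vertical) at E14.5, P1, P7 and P90 (horizontal) for each clock gene (1 probe set per gene), in liver and brain, for 129S2 minus C57BL/6J and DBA/2J minus C57BL/6J; bars are the SE of limma's fit. In liver the 129S2 lines spread at P90, where Dbp reaches 5.25 and Arntl -1.98.

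Levels across stages were set side by side after all arrays of a tissue had been quantile normalized together, and a change counted when it was at least 2-fold in the same direction in each of the 3 strains. In brain 13 of the 23 probe sets were higher at P90 than at E14.5 and 1, Cry1, was lower; 12.6% of all probe sets were higher and 24.7% passed in either direction. As deposited 9 were higher and 1 lower, with the median of all probe sets at -0.82, and after centring 13 were higher and 0 lower, with Cry1 at -0.87 in DBA/2J. Dbp was higher by log2 3.66 ± 0.61 (SD over the 3 strains), with 4.22 in C57BL/6J, 3.01 in DBA/2J and 3.75 in 129S2. Nr1d2 was higher by 3.42 ± 0.07 on 1416958_at, Npas2 by 3.26 ± 0.33 on 1421037_at, Nr1d1 by 2.81 ± 0.38 and Per3 1458176_at by 2.87 ± 0.42, whereas Cry1 was lower, at -1.23 ± 0.23. Much of this lay after P7, since 7 probe sets were higher at P90 than at P7 (16.1% of all probe sets in either direction), 3 at P1 than at E14.5 (5.31%) and 1 at P7 than at P1 (1.05%).

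In liver 7 of the 23 probe sets were higher at P90 than at E14.5 and 0 were lower. Of all probe sets 25.9% passed in either direction, and the 7 lie near that share. The strains differed within this count. Dbp was higher by log2 1.55 in C57BL/6J, 1.32 in DBA/2J and 5.60 in 129S2, Npas2 by 3.17, 3.87 and 1.89, and Nr1d1 by 2.02, 2.08 and 3.50. Arntl was not counted, with 1.33, 2.57 and -0.42. Between P7 and P90 Dbp was at -0.96 in both C57BL/6J and DBA/2J and at 3.58 in 129S2, while Per3 1421087_at was lower in all 3 strains (-1.94, -1.35 and -1.43), and Nr1d1 was higher in all 3 (1.34, 1.68 and 2.92). That made 3 probe sets of 23 between P7 and P90, near the share of all probe sets (14.8%), with 4 between E14.5 and P1 (8.56%) and 0 between P1 and P7 (1.22%). The liver directions depended on the scaling: as deposited, without a common normalization, P90 minus E14.5 liver had 2 probe sets higher and 6 lower, with the median of all probe sets shifted by -1.41. With arrays centred on their medians it was again 7 and 0, with the median of all probe sets at 0.29. Between tissues at P90, 1 of 23 was 2-fold higher in brain (Per3 1460662_at, 1.45; 31.6% of all probe sets in either direction), and the count was 12 on the deposited scale and 0 after centring.

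Over all 24 groups, on a scale where all 72 arrays were quantile normalized together, Dbp was highest in 129S2 P90 liver (11.80 ± 0.66, SD, n = 3). The 3 P90 brain groups came next, with 10.95 ± 0.35 in 129S2, 10.94 ± 0.18 in C57BL/6J and 10.10 ± 0.11 in DBA/2J, of which the first pair lay within their spread. P90 liver stood at rank 13 in DBA/2J (8.07 ± 0.16) and at rank 18 in C57BL/6J (7.40 ± 0.59), and the lowest group was C57BL/6J E14.5 liver (5.76 ± 0.14). For Arntl DBA/2J P90 liver was highest (9.41 ± 0.03) and C57BL/6J P90 liver was at rank 3 (9.14 ± 0.12). The 129S2 P90 liver was at rank 23 (7.40 ± 0.57), within its spread of the group above it, and DBA/2J E14.5 liver was lowest (6.89 ± 0.14). Nr1d1 was highest in 129S2 P90 liver (10.01 ± 0.28) and Cry1 was lowest there (7.29 ± 0.18), next to 129S2 P90 brain (7.32 ± 0.13), which did not differ from it beyond their spread. Nr1d2 (11.64 ± 0.02) and Tef (11.16 ± 0.10) were highest in C57BL/6J P90 brain, with 129S2 P90 brain within the spread of each (11.61 ± 0.04 and 11.13 ± 0.02). Per2 and Per3 were lowest in C57BL/6J P90 liver (6.63 ± 0.18 and 6.49 ± 0.05) and highest in 129S2 P7 liver (8.59 ± 0.26 and 9.20 ± 0.22). Per1 was lowest in DBA/2J P90 liver (7.69 ± 0.10) and highest in C57BL/6J P90 brain (9.10 ± 0.17), and Npas2 ran from 3.91 ± 0.08 in DBA/2J E14.5 liver to 8.12 ± 0.06 in DBA/2J P90 brain. These ranks depended on the scaling. On the deposited values, normalized apart by tissue and stage, Dbp was again highest in 129S2 P90 liver, but Arntl in DBA/2J P90 liver was at rank 16 (8.15) and in C57BL/6J P90 liver at rank 21 (7.87), Arntl was lowest in 129S2 P90 liver (5.89), and Nr1d1 in 129S2 P90 liver was at rank 3 (8.86). The highest groups were then 129S2 P1 liver for Per2 and DBA/2J P7 brain for Per1, and the lowest for Dbp was C57BL/6J P90 liver. After centring, Arntl in DBA/2J P90 liver and Nr1d1 in 129S2 P90 liver were at rank 1, while Nr1d2 and Tef were highest in 129S2 P90 liver and Per2 in C57BL/6J P90 brain.

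**Figure D5:**
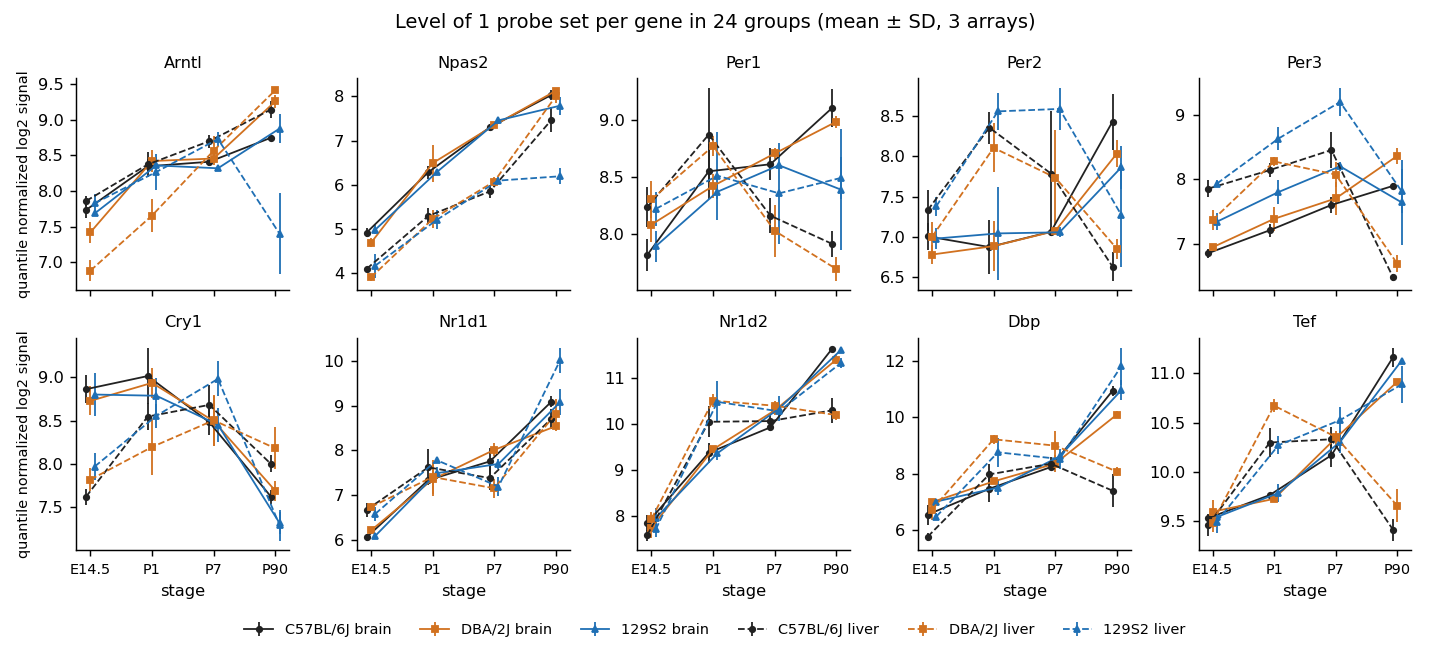
Mean log2 level of each clock gene (1 probe set per gene) in all 24 groups, with all 72 arrays quantile normalized together; error bars are 1 SD over 3 arrays. Dbp stands highest in 129S2 P90 liver, at 11.80, and Arntl stands at 7.40 in the same group, rank 23 of 24.

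The rest of the clock was read from 14 listed genes with 40 probe sets in all. In P90 liver 9 of the 40 were called for 129S2 against C57BL/6J (5 higher, 4 lower), 7 against DBA/2J (3 higher, 4 lower) and 0 by limma for DBA/2J against C57BL/6J (3 at an unadjusted p below 0.05), beside 4.56, 3.67 and 3.03% of all probe sets. The median absolute log2 difference of the 40 was 0.16, 0.09 and 0.07 in that order, with 0.10, 0.09 and 0.10 over all probe sets. Nfil3, which represses D-box genes where DBP activates them, was lower in 129S2 (log2 -1.04 against C57BL/6J, adjusted p = 0.000704; -1.30 against DBA/2J). Ciart, a repressor of the ARNTL pair, was higher (1.24, adjusted p = 8.58e-09; 1.12). Bhlhe40, an E-box repressor, was higher (1.01, adjusted p = 0.0127; 1.27), as was Hlf, the third PAR bZIP factor (0.92, adjusted p = 0.00339; 0.72). Cry2 was higher against C57BL/6J (0.76, adjusted p = 0.00295), and Clock 1439314_at was lower in both pairs (-0.75, adjusted p = 0.00104; -0.73). The 3 called probe sets beyond these, chosen after their values were seen, were Clock 1418659_at and 1418660_at (-0.64 and -0.63 against C57BL/6J) and 1 of Csnk1e (0.65). Bhlhe40 against C57BL/6J was lost without 129S2 replicate 3 (0.89, adjusted p = 0.0731) or C57BL/6J replicate 1 (0.71, adjusted p = 0.146), Hlf against DBA/2J without any 1 array of the pair (0.65 to 0.76, adjusted p 0.0585 to 0.131), and Clock 1439314_at without 129S2 replicate 1 in both pairs (-0.57 and -0.54, under 1.5-fold). Clock 1418659_at and 1418660_at fell under 1.5-fold against C57BL/6J without the same array (-0.51 and -0.54), as did 1418660_at without C57BL/6J replicate 3 (-0.58). The Csnk1e call was lost without C57BL/6J replicate 3 (0.56, adjusted p = 0.0779).

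In brain 3, 1 and 2 of these 40 probe sets were called (DBA/2J against C57BL/6J, 129S2 against C57BL/6J, 129S2 against DBA/2J), beside 2.21, 1.79 and 1.63% of all probe sets, and the single call of 129S2 against C57BL/6J was near that share. Nfil3 was higher in DBA/2J, the strain with lower brain Dbp (0.61 against C57BL/6J, adjusted p = 0.000158; -0.93 for 129S2 minus DBA/2J, adjusted p = 3.13e-07). The first of these was under 1.5-fold without C57BL/6J replicate 3 or DBA/2J replicate 3 (0.57 and 0.58). Rora 1458145_at, an activator of Arntl, was lower in DBA/2J (-0.77, adjusted p = 6.03e-05), as was Ciart (-0.65, adjusted p = 0.00118; -0.57 and under 1.5-fold without C57BL/6J replicate 3). Rora 1458145_at was also called for 129S2 minus DBA/2J (0.61), but not without 129S2 replicate 1 or 3 or DBA/2J replicate 3 (0.50 to 0.54). None of the further Rora probe sets was called in P90 brain in any pair. Btrc 1446925_at, part of a ligase for PER proteins, was higher in 129S2 than in C57BL/6J (0.64, adjusted p = 6.89e-05; 0.52 and under 1.5-fold without C57BL/6J replicate 3). The further Btrc probe sets were not called there.

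Genes known to cycle downstream of the liver clock were read from 9 listed genes with 18 probe sets in all. In liver 7 of the 18 were called for 129S2 against C57BL/6J (4 higher, 3 lower), 8 against DBA/2J (5 higher, 3 lower) and 0 for DBA/2J against C57BL/6J, where 7 had an unadjusted p below 0.05. The shares of all probe sets called were 4.56, 3.67 and 3.03%. In brain limma called 0 in each pair, with 1, 2 and 3 at an unadjusted p below 0.05 (DBA/2J against C57BL/6J, 129S2 against C57BL/6J, 129S2 against DBA/2J). The deubiquitinase Usp2 was higher in 129S2 liver by log2 3.15 against C57BL/6J and 3.41 against DBA/2J on 1417168_a_at (adjusted p = 1.72e-09 and 3.8e-10), and by 1.34 and 1.57 on 1417169_at. Elovl3, a fatty acid elongase, was lower by -1.85 and -2.19 (adjusted p = 1.72e-17 and 4.78e-19). Lonrf3 1436200_at was lower by -1.14 and -1.64, and Coq10b was higher against DBA/2J alone (1.37 and 1.25 on its probe sets). The second Coq10b value was not called without 129S2 replicate 1 (0.92, adjusted p = 0.0586). The median absolute log2 difference of the 18 in liver was 0.60, 0.70 and 0.40 for 129S2 against C57BL/6J, 129S2 against DBA/2J and DBA/2J against C57BL/6J, so this list was spread in the last pair too without a call.

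A list of 7 genes that respond to glucocorticoids, a hormone that also follows the day, had 21 probe sets. In liver 1, 4 and 1 were called (129S2 against C57BL/6J, 129S2 against DBA/2J, DBA/2J against C57BL/6J), and 1 of 21 is 4.76%, near the 4.56 and 3.03% of all probe sets called in the first and last pair (3.67% in the other). In brain limma called 0, 1 and 0, with 5 at an unadjusted p below 0.05 in each of the pairs without a call. Klf9, a transcription factor induced by the hormone, was higher in 129S2 than in DBA/2J liver on 3 probe sets (0.85, 1.30 and 0.76) and lower in DBA/2J than in C57BL/6J on 1 (-0.69). Cdkn1a, a cell cycle inhibitor, was lower in 129S2 liver (-1.13 and -0.75) and in 129S2 brain against DBA/2J (-0.76). Each Klf9 call was lost without at least 1 array, among them DBA/2J replicate 1 (0.66, 1.14 and 0.71 for 129S2 minus DBA/2J, and -0.50 for DBA/2J minus C57BL/6J), and the liver Cdkn1a call against DBA/2J was lost without 129S2 replicate 1 or 2 or DBA/2J replicate 2 or 3 (-0.60 to -0.80). The part of the hormone in the clock gene differences was not tested.

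Over the 72 arrays, as deviations from the mean of the 9 arrays of the same tissue and stage, the genes most like Dbp among 12078 genes compared were Tef (Pearson r = 0.92), Cyp2c39 (0.89), Nr1d2 (0.84) and Gstt2 (0.84). The most opposed were Arntl (-0.88), Desi2 (-0.86), Ces4a (-0.85) and Elovl3 (-0.83). For Arntl the most like were Selenbp1 (0.80), Tubb2a (0.80), Elovl3 (0.77) and Chsy1 (0.76), and the most opposed Dbp (-0.88), Tef (-0.82), Usp2 (-0.78) and Cyp4a14 (-0.76). These values describe arrays that share strain and normalization set. With the 3 P90 livers of 129S2 left out of the correlation, the value of Dbp with Arntl was -0.74 (n = 69), with Tef 0.82 and with Nr1d2 0.74. The deviations were still taken from means that included those 3 arrays. These values therefore cannot show whether the likeness holds without them. Within the 9 P90 brains the value of Dbp was -0.95 with Arntl, 0.74 with Tef and 0.78 with Nr1d2. It was -0.79 with Desi2, 0.33 with Gstt2 and 0.18 with Cyp2c39, and the sign was reversed for Elovl3 (0.19) and Ces4a (0.25). For Arntl the sign was kept there by Tef (-0.80), Usp2 (-0.71), Tubb2a (0.55) and Chsy1 (0.30). It was reversed for Selenbp1 (-0.28), Elovl3 (-0.13) and Cyp4a14 (0.22). When deviations were taken from the mean of each strain's own group, 2 of the 16 places named above went to the same genes. Both were the pair of Dbp and Arntl, seen from either side. Its value was then -0.59 over the 72 arrays and -0.38 without the 3 P90 livers of 129S2 (n = 69).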

How the data were processed

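Affymetrix arrays of 36 brain and 36 liver samples were used, 3 per strain, stage and tissue, grouped by the sample labels. The deposited values were log2 signals per probe set that the authors had made with RMA (version not given), per the labels and the submitters' processing notes. Identical values were shared by 1.55 to 4.35% of probe sets between arrays of 1 tissue and stage and by 0 between others, so the authors had normalized 8 sets of 9 arrays apart. Arrays carry no read depth, and the 3 per group limit the precision. No 2 arrays correlated above 0.998, and none were merged. Probe sets were named from GEO's platform annotation: 34958 had 1 symbol, 932 several and 9211 none.

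A mean per group was fitted with limma 3.58.1 (R 4.3.3) to the 36 arrays of a tissue, or to all 72 for differences between tissues, without a filter. Contrasts were tested with empirical Bayes, two-sided, and adjusted with Benjamini-Hochberg over all 45101 probe sets; a call needed an adjusted p below 0.05 and 1.5-fold. The fit was checked on simulated data. Of the 23 clock probe sets, 21 in brain and 16 in liver had a group mean above 6.66, the median of all values. All 10 genes were named, with values from each of their probe sets in P90 liver. In P90 brain several probe sets without a call were left out. At the earlier stages strain values are given for the called ones, with some brain readings of Dbp and Per3 beside them. From each further list, called probe sets were named by largest absolute difference, at most 6 per list and tissue, and for likeness the 4 highest and 4 lowest r. The alternatives were a filter, other scalings, array weights, another eBayes, 1 value per gene, other fold minimums, a replicate block and 72 refits without 1 array. Replicate numbers were not taken as pairs. The genes, lists, markers and motifs were chosen with earlier results of these data known.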

Additional observations from a re-analysis of the deposited data

Results flagged for a closer look

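Strain effects that differed between tissues or between ages, by the limma test of that difference, are collected here as values. For brain minus liver at P90, 4 clock probe sets were called for DBA/2J against C57BL/6J, 17 for 129S2 against C57BL/6J and 15 for 129S2 against DBA/2J. Of all probe sets 2.97, 4.18 and 3.27% were called in that order. In DBA/2J against C57BL/6J the value for Dbp was -1.49. In 129S2 against C57BL/6J the log2 differences between tissues were 2.08 for Arntl, 1.06 for Npas2, -1.32 for Per1, -1.27 for Per2, -1.74 for Per3, -1.52 for Nr1d1, -1.31 for Nr1d2, -5.26 for Dbp and -1.82 for Tef. In 129S2 against DBA/2J they were 1.88 for Arntl, 1.53 for Npas2, -1.47 for Per1, -1.95 for Per3, -0.93 for Nr1d1, -1.28 for Nr1d2, -3.77 for Dbp and -1.35 for Tef.

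For P90 minus the mean of the earlier stages in brain, 3 probe sets were called for DBA/2J against C57BL/6J, 1 for 129S2 against C57BL/6J and 4 for 129S2 against DBA/2J. Of all probe sets 1.16, 1.02 and 0.869% were called in that order. The clock gene values were -0.65 for Nr1d1 and -1.03 for Dbp in the first pair, and -0.87 and -1.20 for Per3 in the pairs with 129S2. At P90 itself Nr1d1 was not called in the first pair, nor was this Per3 probe set for 129S2 against C57BL/6J.

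For the same contrast in liver, 3, 14 and 14 were called in that order of pairs, beside 2.66, 3.76 and 3.54% of all probe sets. For DBA/2J against C57BL/6J Arntl stood at 0.86 and Npas2 at 0.59, with no call for either at P90 itself. In 129S2 against C57BL/6J the values were -1.97 for Arntl, -1.38 for Npas2, 0.97 for Per3, -1.03 for Cry1, 1.53 for Nr1d1, 0.97 for Nr1d2, 4.71 for Dbp and 1.65 for Tef. In 129S2 against DBA/2J they were -2.83 for Arntl, -1.98 for Npas2, 0.86 for Per1, -1.31 for Cry1, 1.33 for Nr1d1, 1.54 for Nr1d2, 4.88 for Dbp and 1.55 for Tef. The 3 pairs share arrays, and some of these calls were lost in refits without 1 array, as given above.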

How the results depend on the processing

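Counts below run over the 3 strain pairs: 13 calls in P90 brain, 30 in P90 liver, 1 in early brain, 6 in early liver, 22 of 39 with the same sign in both tissues, 36 between tissues, 8 between ages in brain, 31 in liver, and 22 over the other clock genes. With 1 probe set per gene they were 4, 18, 0, 9 of 19 for the sign, 18, 4, 18 and 12, with fewer probe sets counted. With the mean of a gene's probe sets they were 3, 18, 0, 0 in early liver, 8 of 19, 17, 3, 17 and 11. Early brain had 2 after joint quantile normalization, with array weights or with the arrays of 1 stage, and P90 brain had 8 with the arrays of 1 stage. Without a fold minimum P90 brain had 20, early brain 4 and early liver 17; at 2-fold these were 1, 0 and 2, the sign count 13 of 25, the brain age count 2 and the other clock genes 6. Leaving out 1 array gave ranges of 7 to 17, 29 to 33, 0 to 3, 5 to 9, 20 to 26, 30 to 39, 4 to 14, 29 to 33 and 15 to 23 in the order of the opening sentence. As deposited, P90 minus P7 had 4 of 23 probe sets at 2-fold in brain (7 after quantile normalization) and 6 in liver (3), and brain against liver at P90 had 12 (1), or 0 after centring; of the 16 genes named for likeness 2 were shared with deviations from group means. The replicate block gave 13, 30, 1, 8, 22 of 39, 36, 10, 31 and 22; same-numbered arrays correlated with a median r of 0.15 between tissues (19 of 36 over 0.1), 0.13 between strains in brain and 0.05 in liver, so the numbers were not read as pairs. The 169 called values were checked 4463 times in all under these settings and the refits without 1 array: the value stayed called in 4171 checks and did not in 292, and 0 changed sign. The arrays of 1 stage give no contrast between ages. The cause of these changes was not tested. No call rests on depth, which arrays lack; probe sets near the lowest signals can show little difference.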
